A study of Mus musculus with 8 samples.

Results

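Enzymes that remove reactive oxygen species and Txnip, the redox regulator that binds thioredoxin, were followed by their gene symbols through 8 RNA-sequencing libraries of mouse bone marrow stem and progenitor cells. The set holds 10 of the 20207 genes measured, namely Sod1, Sod2, Cat, Gpx1, Gpx4, Prdx1, Prdx2, Txn1, Txnip and Hmox1, and all 10 passed the minimum of a summed RPKM above 1. RPKM is the number of reads per kilobase of transcript per 1e6 mapped reads, so that levels of different genes can be compared per length.

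The cells came from normal mice and from mice with a disease like chronic myelogenous leukaemia (CML). The CML-affected mice carried Tal1-tTA, in which the Tal1 locus drives a tetracycline-controlled activator in stem and progenitor cells, and TRE-BCR-ABL1, an oncogene switched on by withdrawal of doxycycline. The study describes the normal mice as littermates with Tal1-tTA alone, in which case the activator was present in both groups. Long-term (LT) stem cells were CD150+CD48-CD135- cells of the KLS+ gate, short-term (ST) stem cells were CD150-CD48-CD135- cells of the same gate, and KLS- cells were cKit+Lineage-Sca-1- progenitors. Normal LT-HSCs gave 2 libraries, from mice labelled 2 and 6 months old, and LT-CML stem cells gave 2 libraries with no age in the labels. Normal ST-HSCs and normal KLS- cells (both labelled 2 months old), ST-CML cells and CML-KLS- cells gave 1 library each. The labels name the strain C57BL/6 for all libraries, whereas the methods of the study describe FVB/N mice, of an age range that ends below the age labelled for LT-HSC replicate 2. The study also used healthy C57BL/6 mice as controls for its metabolite measurements, of 2 ages close to the 2 and 6 months labelled here. Which normal mice gave these libraries is therefore not settled. If they were those mice, strain and Tal1-tTA may differ between CML and normal libraries along with disease. The comparisons of CML with normal libraries below cannot tell these apart. Neither the labels nor the methods say how many mice gave a library. The LT-HSC replicates carry different ages, and in both LT pairs the second replicate alone held a Y-linked transcript (values below), so the replicates of a pair did not come from the same animals. The p-values measure the spread between these libraries.

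Cells that burn oxygen leak superoxide, which superoxide dismutases turn into hydrogen peroxide. Catalase, glutathione peroxidases and peroxiredoxins then reduce the peroxide, with glutathione or thioredoxin as the electron source. Txnip holds thioredoxin in an inactive complex and restrains glucose uptake, and in bone marrow it is known as a gene of quiescent stem cells.

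The estimated depth was 17.8 to 23.9 M reads, and the summed HSC markers followed the stem and KLS- labels. All 6 HSC markers of the list (Slamf1, Procr, Hlf, Mecom, Ly6a and Kit) were higher on average in stem than in KLS- libraries. Their summed levels were 275 to 474 RPKM against 90.4 to 105. Slamf1 did not separate every library, with 1.11 RPKM in ST-HSC and 2.87 RPKM in ST-CML. It was at 0.955 RPKM in normal KLS- and 2.36 RPKM in CML-KLS-. Of the neutrophil markers, the sums were highest among stem libraries in LT-HSC replicate 2 (4165 RPKM), LT-CML replicate 2 (3831 RPKM) and ST-CML (2168 RPKM), against 255 to 601 in the other stem libraries. Different genes led these sums. S100a8 led in LT-HSC replicate 2, at 1802 RPKM with Mpo at 69.9 RPKM. Mpo led in LT-CML replicate 2 (1291 RPKM, S100a8 588 RPKM) and in ST-CML (830 RPKM, S100a8 227 RPKM). The same second LT replicates also held the Y-linked transcript Ddx3y (31.0 and 17.5 RPKM), which stayed at or below 0.0625 RPKM in the 6 other libraries. Summed RPKM over all genes was 324114 to 372849 in the 6 stem libraries and 444650 and 465695 in the 2 KLS- libraries, a difference that matters for every comparison between stem cells and progenitors below.

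Most of these genes were strongly expressed in every population. Gpx1 and Sod1 were the highest, ranking between 45 and 104 among all genes in each library, whereas Hmox1 was the lowest, with ranks from 6287 to 10051. Between stem cells and KLS- progenitors the largest difference was that of Txnip, which was 3.04-fold higher in stem cells, while glutathione peroxidase Gpx1 was 1.95-fold higher in the progenitors. Between CML stem cells and normal HSCs none of the 10 passed the test.

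**Figure D1:**
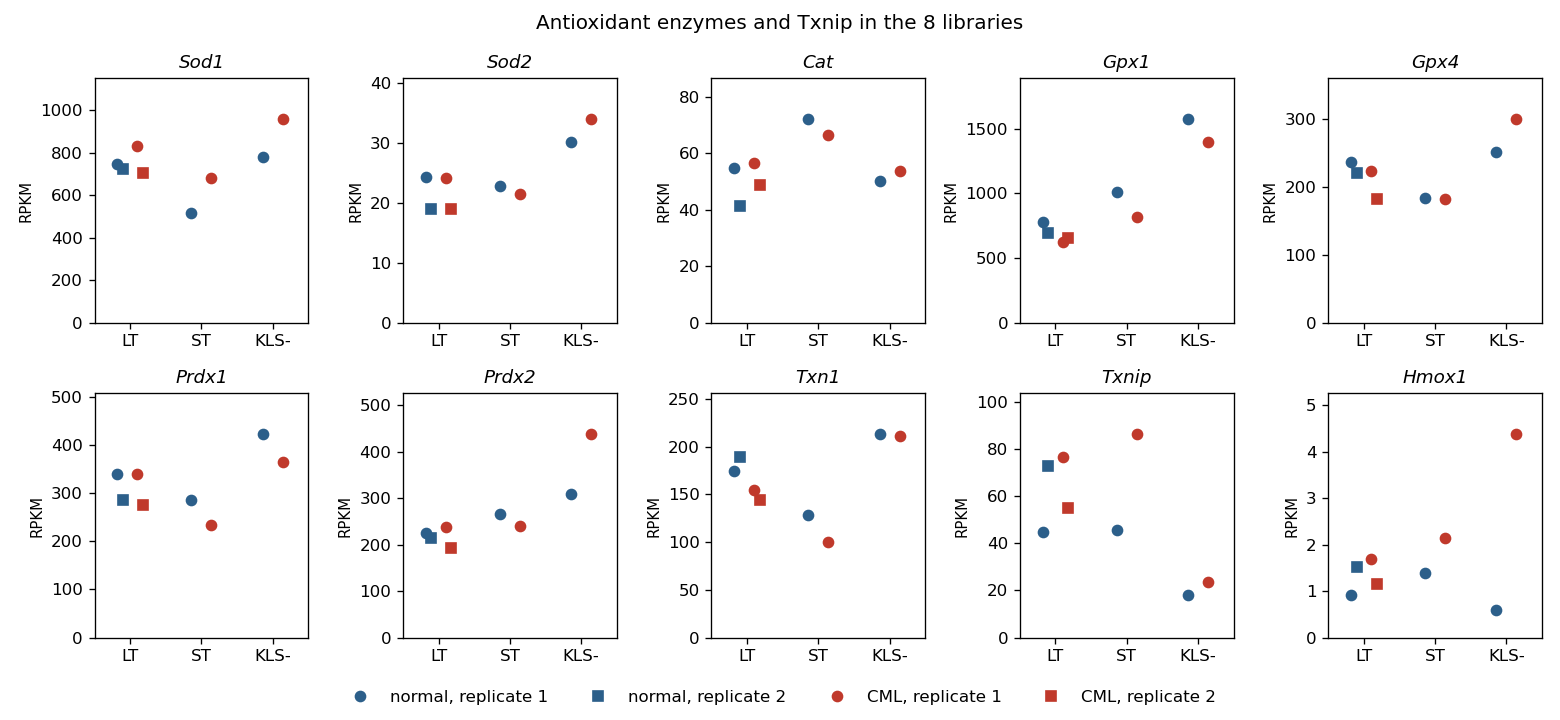
RPKM of each of the 10 genes (vertical axes, each starting at 0) in LT, ST and KLS- libraries, with 1 point per library, blue for normal and red for CML, circles for replicate 1 and squares for replicate 2. The 2 KLS- points lie below all 6 stem points for Txnip and above all 6 for Gpx1, and the CML-KLS- point of Hmox1 (4.38 RPKM) stands above all other libraries.

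Txnip was read at 44.9 and 72.8 RPKM in the LT-HSC libraries and at 45.8 RPKM in the ST-HSC library. In CML it stood at 76.6 and 54.9 RPKM in the LT libraries and at 86.3 RPKM in the ST library. The normal and CML KLS- libraries had 18.1 and 23.7 RPKM. All 6 stem libraries therefore lay above both KLS- libraries, and the lowest stem value belonged to an LT-HSC library. The mean was 63.6 ± 17.4 RPKM (SD, n = 6) in stem libraries and 20.9 ± 3.99 RPKM (SD, n = 2) in KLS- libraries. In a limma fit of all 8 libraries with terms for population and disease, the log2 fold change of stem (the mean of LT and ST) against KLS- was 1.54 (SE 0.23, adjusted p = 8.47e-04). The stem libraries exceeded the KLS- library 3.02-fold within the normal mice and 3.06-fold within the CML-affected mice, each against a single KLS- library. Ordered by population, Txnip ran from ST-CML through LT-CML (65.8 ± 15.4 RPKM, SD, n = 2), LT-HSC (58.9 ± 19.7 RPKM, SD, n = 2) and ST-HSC to CML-KLS- and normal KLS-. The LT-CML and LT-HSC libraries overlapped, and a single library for each ST and KLS- population leaves no spread to set against the others. In these bulk libraries, fewer cells with a transcript and less transcript per cell cannot be told apart.

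In the mm9 genome, Txnip occupies bases 96361880 to 96365806 of chromosome 3, plus strand (NCBI Build 37, with the GENCODE M1 annotation). The non-coding gene Gm15441 spans the same 3927 bases on the opposite strand. The study's sources do not state that reads were counted by strand, so reads from the 2 genes cannot be told apart. Its promoter is known to respond to glucose through a paired E-box-like element bound by the Mlx partners and to forkhead (FOXO) factors. The letters of such elements were therefore looked for in the RefSeq promoter windows of the GRCm38.p6 assembly, each 250 bases before to 50 bases after a gene's start, on both strands. The paired element was searched as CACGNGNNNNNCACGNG, where N is any base, and the forkhead core as GTAAACA. Txnip held both, the paired element from base -85 to -69 and the forkhead core from base -121 to -115 relative to the start, without overlap. Among all 32851 windows, 0.0487% (16 windows) held the paired element and 3.65% the forkhead core. The paired element was searched because it is known in this promoter, so its match and its rarity are no independent support. The 150 bases before the start (chr3:96557807-96557956, plus strand, GRCm38.p6) are shown 5′ to 3′, with the forkhead core and then the paired element in capitals, because Txnip had the largest difference of the 10 genes between stem and KLS- libraries.
Txnip: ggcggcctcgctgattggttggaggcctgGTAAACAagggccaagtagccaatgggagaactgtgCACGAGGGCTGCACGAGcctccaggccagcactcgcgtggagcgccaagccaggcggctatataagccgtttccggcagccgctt
A match of letters is a description of the sequence and not evidence of binding in these cells.

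The genes for those factors were measured in the same libraries. Mlx, the shared partner of the glucose-responsive factors, fell in stem cells (log2 fold change -0.99, SE 0.12, adjusted p = 3.79e-04 from limma), from 23.5 to 25.9 RPKM in KLS- libraries to 10.6 to 12.8 RPKM in stem libraries. Its partner Mlxip (MondoA) was between 2.95 and 4.13 RPKM in all 8 libraries, and Mlxipl was at or below 0.0355 RPKM and was not tested. Foxo1 rose in stem cells by 1.35 on the log2 scale (SE 0.15, adjusted p = 1.94e-04), from 0.667 and 0.827 RPKM in KLS- libraries to between 2.99 and 4.96 RPKM in stem libraries. Slc2a1, the glucose transporter GLUT1 that Txnip restrains, was also higher in stem cells (log2 fold change 0.93, SE 0.17, adjusted p = 0.00224). Its call was lost without the CML-KLS- library (log2 fold change 0.72, adjusted p = 0.0553). Of the 7 tested genes of the list of Txnip relatives and regulators, 2 were higher (Slc2a1 and the related arrestin Arrdc3, log2 fold change 0.71, SE 0.21, adjusted p = 0.0218), 1 was lower and 4 did not pass. Of all genes tested in this comparison, 26.5% were called higher and 22.2% lower, so these counts do not set the list apart. The counts of the list were 3 higher and 2 lower after quantile normalization, and 5 higher and 1 lower after scaling to a common sum. The call of Arrdc3 was lost under 5 of the alternatives tried, among them leaving out either KLS- library or the ST-HSC library (adjusted p = 0.0563 to 0.233).

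The ratio of Txnip to Txn1 within a library does not change when a library is multiplied by a constant. Quantile normalization can change it, and the ratios here are of the deposited RPKM. It was 0.258 and 0.386 in LT-HSC, 0.357 in ST-HSC, 0.497 and 0.381 in LT-CML, 0.865 in ST-CML, and 0.0848 and 0.113 in the normal and CML KLS- libraries. The lowest stem ratio was thus above both KLS- ratios, whereas the CML and normal stem ratios overlapped. This ratio was chosen after the values were seen and is given as a description.

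The next largest difference called between stem and KLS- libraries was that of Gpx1, the abundant cytosolic glutathione peroxidase that reduces hydrogen peroxide, encoded at bases 108241607 to 108242671 of chromosome 9 (plus strand, mm9). Gpx1 was at 775 and 696 RPKM in LT-HSC, 1010 in ST-HSC, 622 and 654 in LT-CML and 820 in ST-CML. The KLS- libraries had 1575 RPKM in normal and 1396 RPKM in CML-affected mice. Both KLS- values were above all 6 stem values. The mean was 763 ± 142 RPKM (SD, n = 6) in stem libraries and 1486 ± 127 RPKM (SD, n = 2) in KLS- libraries, and the log2 fold change of stem against KLS- was -0.91 (SE 0.11, adjusted p = 3.00e-04 from limma).

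Of the 10 genes, 8 passed the test between stem and KLS- libraries, 1 higher in stem cells and 7 lower. This comparison called 48.7% of the 12561 genes tested, 26.5% higher and 22.2% lower in stem cells, so that a call alone was common here. The median log2 fold change was -0.47 over the 10 genes and 0.078 over all genes tested. The 5 further falls with an adjusted p from limma below that of Sod1 are described first, by role.

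Sod2, the mitochondrial superoxide dismutase, was between 18.9 and 24.3 RPKM in the stem libraries, with a median of 22.1 RPKM, and at 30.1 and 34.0 RPKM in the KLS- libraries. The groups did not overlap (log2 fold change -0.54, SE 0.15, adjusted p = 0.0163). Gpx4, which reduces lipid peroxides in membranes, was between 182 and 236 RPKM in the stem libraries, with a median of 202 RPKM, and at 251 and 300 RPKM in the KLS- libraries. These groups did not overlap either on the deposited RPKM (log2 fold change -0.47, SE 0.14, adjusted p = 0.0207 from limma).

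Among the peroxiredoxins, which reduce peroxide through a reactive cysteine that thioredoxin restores, Prdx1 was between 234 and 341 RPKM in the stem libraries, with a median of 285 RPKM. It was at 423 and 366 RPKM in the normal and CML KLS- libraries (log2 fold change -0.48, SE 0.14, adjusted p = 0.0180). Prdx2, abundant in red blood cells and their precursors, was between 193 and 266 RPKM in the stem libraries, with a median of 231 RPKM, and at 309 and 438 RPKM in the KLS- libraries (log2 fold change -0.65, SE 0.15, adjusted p = 0.00822). The higher of these values was that of the CML-KLS- library. The first 181 bases of Prdx2 (chromosome 8, from 87493486 in mm9) overlap Rnaseh2a on the opposite strand, which was at 15.7 to 35.0 RPKM, far below Prdx2. Txn1, cytosolic thioredoxin and the partner of Txnip, was between 99.9 and 189 RPKM in the stem libraries, with a median of 149 RPKM, and at 213 and 211 RPKM in the KLS- libraries (log2 fold change -0.63, SE 0.12, adjusted p = 0.00258). On the deposited RPKM, no stem library reached a KLS- library for Prdx1, Prdx2 or Txn1. The larger RPKM sums of the KLS- libraries bear on this separation, which is given for that scale only.

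Sod1, the cytosolic superoxide dismutase, was between 516 and 830 RPKM in the stem libraries, with a median of 714 RPKM, and at 779 and 958 RPKM in the KLS- libraries. Here LT-CML replicate 1 lay above the normal KLS- library, and the groups overlapped (log2 fold change -0.38, SE 0.13, adjusted p = 0.0354). Cat, catalase of the peroxisome, was between 41.4 and 72.2 RPKM in the stem libraries and at 50.1 and 53.9 RPKM in the KLS- libraries, and did not pass the test (log2 fold change 0.18, SE 0.14, adjusted p = 0.333).

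These falls depended on how the libraries were scaled to each other, except that of Gpx1. Upper-quartile scaling left 1 gene higher and 7 lower. RPKM sums were larger in the KLS- libraries, and bringing every library to a common sum moved the median log2 fold change of all genes from 0.078 to 0.28. After that step 2 of the 10 genes were higher (Txnip, 1.87, adjusted p = 2.98e-04, and Cat, 0.52, adjusted p = 0.00952) and 2 were lower (Gpx1, -0.56, adjusted p = 0.00188, and Txn1, -0.28, adjusted p = 0.0363). After quantile normalization 2 were higher (Txnip, 1.76, adjusted p = 0.00136, and Cat, 0.55, adjusted p = 0.00378) and only Gpx1 was lower (-0.51). The log2 fold changes of Sod1 (0.13), Gpx4 (0.12) and Prdx1 (0.12) then turned to the stem side without passing the test, and those of Sod2 (-0.32), Prdx2 (-0.065) and Txn1 (-0.047) stayed negative and did not pass it. Without the CML-KLS- library, which leaves 1 KLS- library, only Txnip (1.51, adjusted p = 0.0166) and Gpx1 passed, and Sod1, Sod2, Gpx4, Prdx1, Prdx2 and Txn1 had adjusted p from 0.0712 to 0.306. Without the normal KLS- library the calls of Sod1, Sod2 and Prdx1 were lost (adjusted p = 0.0636 to 0.158), and without the ST-CML library those of Sod1, Sod2, Gpx4 and Prdx1 (adjusted p = 0.0529 to 0.0726). Leaving out the ST-HSC library ended the calls of Sod1 and Gpx4 (adjusted p = 0.138 and 0.0592), and leaving out LT-HSC replicate 1 that of Sod1 (adjusted p = 0.0529). Txnip and Gpx1 passed under all 16 alternatives, with log2 fold changes of 1.37 to 1.87 and of -0.95 to -0.51.

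**Figure D2:**
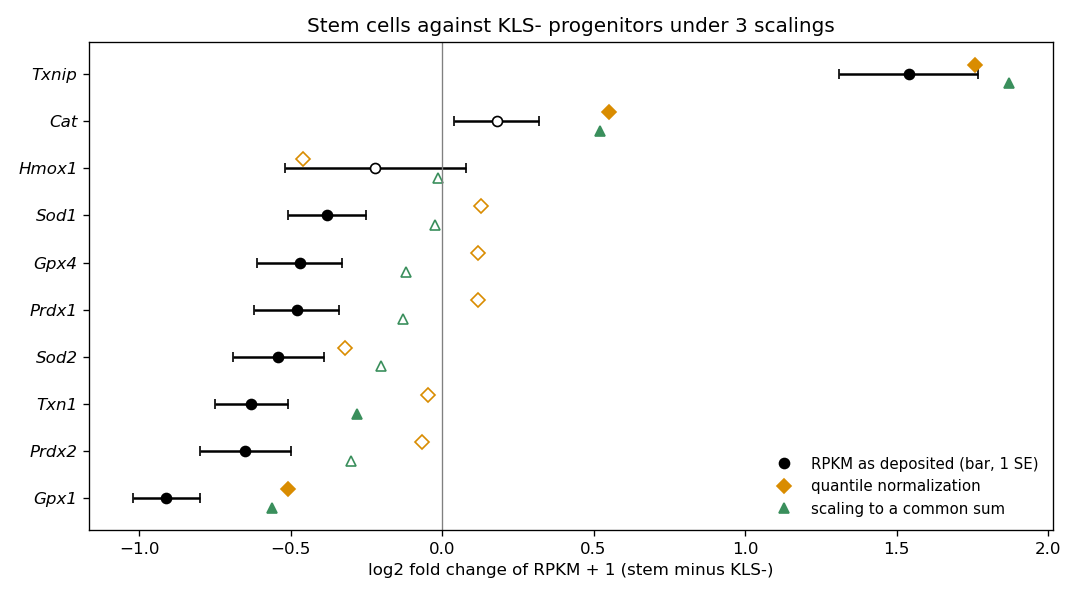
Log2 fold change of RPKM + 1 between stem and KLS- libraries (horizontal axis) for the 10 genes, from the deposited RPKM (black circles, bars of 1 SE), after quantile normalization (orange diamonds) and after scaling to a common sum (green triangles), filled where the adjusted p from limma was under 0.05. Txnip is filled on the right and Gpx1 on the left under all 3 scalings, whereas Sod1, Gpx4 and Prdx1 cross 0 under quantile normalization.

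Cell composition and proliferation moved with this comparison. All 12 proliferation genes fell in stem (the mean of LT and ST) against KLS- libraries, with summed levels of 270 to 784 RPKM against 1063 and 1085 RPKM. Not every LT library was lower for every gene. Ccna2 was at 8.68 RPKM in LT-HSC replicate 2, against 8.43 and 8.01 RPKM in KLS- libraries. Mki67 was at 28.4 RPKM in LT-HSC replicate 1, against 29.9 and 25.8 RPKM. Under quantile normalization 9 of the 12 fell and 3 did not pass. The 9 neutrophil markers summed to 255 to 4165 RPKM in stem libraries and to 13072 and 21234 RPKM in KLS- libraries, led by Mpo at 7891 and 13120 RPKM in the latter. This list was split, with 4 of the 9 called lower in stem libraries and 5 that did not pass. Ltf, Camp, Ngp, S100a8 and S100a9 were each highest in a stem library, LT-HSC replicate 2. S100a8 was at 1802 RPKM there and at 92.6 and 487 RPKM in the KLS- libraries. The monocyte markers summed to 11.2 to 179 RPKM against 854 and 1102 RPKM, and the basophil and mast cell markers to 5.67 to 26.0 RPKM against 110 and 119 RPKM. The erythroid markers summed to 533 to 1569 RPKM against 1649 and 2897 RPKM, with Hba-a1 at 0 in all libraries. Of the 8 tested, 5 were called lower in stem libraries and 3 did not pass. Car2, the largest part of the stem sums, was at 494 to 1494 RPKM in stem and at 785 and 1025 RPKM in KLS- libraries. Hbb-b1 was highest in LT-HSC replicate 2 (56.3 RPKM). Megakaryocyte markers went the other way, with 153 to 612 RPKM in stem and 59.5 to 93.3 RPKM in KLS- libraries. The lymphoid markers summed to 0.572 to 26.7 RPKM in stem and 8.34 and 10.9 RPKM in KLS- libraries. The part of these cell types in the differences above was not tested.

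Between CML stem cells and normal HSCs (3 libraries against 3, a question of how the leukaemic stem cell differs from its normal counterpart), 0 of the 10 genes passed the limma test, and 0 had an unadjusted p under 0.05. The comparison called 2.34% of all genes tested. CML and normal stem libraries overlapped for each of the 10. Txnip had the largest difference, with 72.6 ± 16.1 RPKM in CML stem cells and 54.5 ± 15.9 RPKM in normal HSCs (SD, n = 3 each). Its log2 fold change was 0.42 (SE 0.24, adjusted p = 0.554), and a two-sided exact permutation test gave p = 0.20, where 0.1 is the smallest p that 3 against 3 can give. LT-HSC replicate 2, at 72.8 RPKM, lay within the range of the CML libraries. Without both second LT replicates the log2 fold change of Txnip was 0.83 (adjusted p = 0.118 from limma).

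The next largest differences did not pass either. Txn1 was 133 ± 28.9 RPKM in CML stem cells and 164 ± 31.6 RPKM in normal HSCs (SD, n = 3 each), a log2 fold change of -0.31 (SE 0.21, adjusted p = 0.647 from limma). Gpx1 was 699 ± 106 RPKM against 827 ± 163 RPKM (SD, n = 3 each), a log2 fold change of -0.24 (SE 0.18, adjusted p = 0.675). Sod1 was 738 ± 80.9 RPKM against 661 ± 126 RPKM (SD, n = 3 each), with a log2 fold change of 0.17 (SE 0.17, adjusted p = 0.764). Sod2, Cat, Gpx4, Prdx1 and Prdx2 had log2 fold changes between -0.12 and 0.053, within 1 SE of 0, and Hmox1 had 0.22 (SE 0.18, adjusted p = 0.706). The exact permutation p of these 9 genes was 0.30 to 0.90.

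In the LT populations alone (2 libraries against 2), 0 of the 10 genes passed and 0 had an unadjusted p under 0.05 in limma, where 1.73% of all genes were called. The log2 fold changes lay between -0.28 (Txn1) and 0.18 (Txnip, SE 0.28, adjusted p = 0.887). The LT libraries did not overlap for Txn1, with 174 and 189 RPKM in LT-HSC and 154 and 144 RPKM in LT-CML (adjusted p = 0.645 from limma). They did not overlap for Gpx1 either, with 775 and 696 RPKM against 622 and 654 RPKM (adjusted p = 0.774). With 2 libraries on each side, a lack of overlap arises readily without any difference between the groups. In the ST populations, with 1 library each and therefore no test, Txnip was 1.89-fold higher in CML (86.3 against 45.8 RPKM), Sod1 1.32-fold higher (680 against 516 RPKM) and Txn1 at 0.778 times the normal level (99.9 against 128 RPKM). Across LT, ST and KLS-, the CML value was above the normal one in all 3 populations for Sod1, Txnip and Hmox1, and below it in all 3 for Gpx1, Prdx1 and Txn1. These signs are a description, since most single differences were within the spread of the LT replicates or had no replicate.

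**Figure D3:**
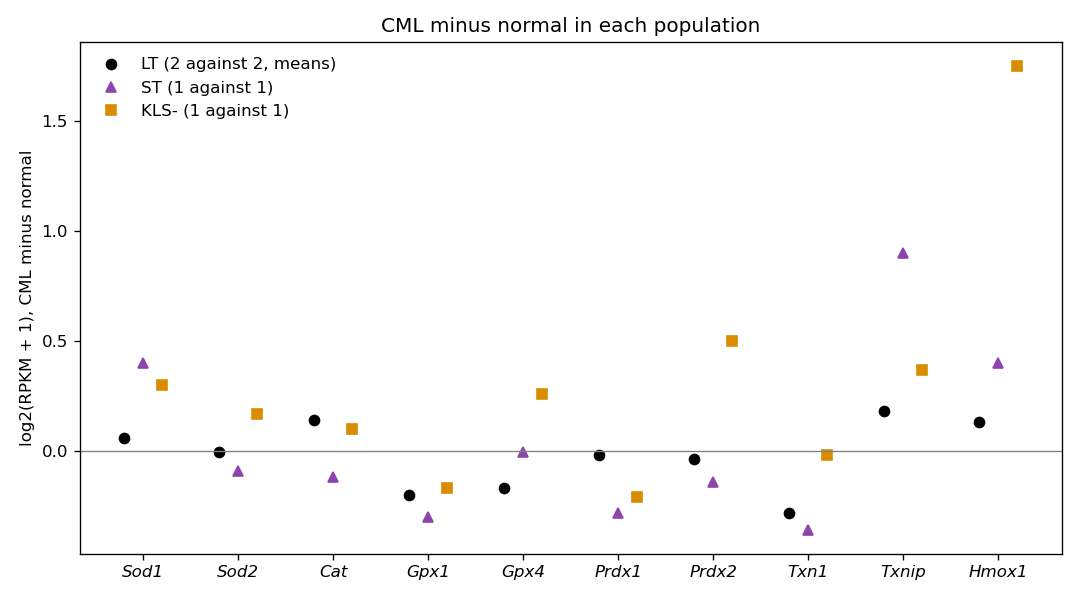
CML minus normal in log2(RPKM + 1) (vertical axis) for each of the 10 genes, from the means of 2 against 2 LT libraries (black circles), and from 1 against 1 library for ST (purple triangles) and KLS- (orange squares). Apart from Hmox1 in KLS- (1.75) and Txnip in ST (0.90), the points lie between -0.36 and 0.50.

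Hmox1, the inducible haem oxygenase that breaks down haem and answers to oxidative stress, was low in all stem libraries. It was at 0.923 and 1.51 RPKM in LT-HSC, 1.39 in ST-HSC, 1.69 and 1.15 in LT-CML and 2.15 RPKM in ST-CML. The normal KLS- library had the lowest value, 0.596 RPKM, and the CML-KLS- library the highest, 4.38 RPKM, a 7.36-fold difference between 2 libraries without replicates. From the estimated depth and an exon length of 2161 bases these values stood for about 26 and 169 reads, with counting errors of 19.6% and 7.70%, which cover sampling of reads only. Stem against KLS- gave a log2 fold change of -0.22 (SE 0.30, adjusted p = 0.562 from limma), and the sign followed the KLS- library kept. It was -0.99 (adjusted p = 0.0177) without the normal KLS- library and 0.54 (adjusted p = 0.117) without the CML-KLS- library.

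The difference between the effect of CML in stem cells and in KLS- cells was tested as an interaction. For Hmox1 it was -1.54 on the log2 scale (SE 0.33, adjusted p = 0.439 from limma) and did not pass. Over all alternatives it stayed between -2.34 and -1.31, with adjusted p from 0.109 to 0.772. The interaction called 0.0717% of all genes and 0 of the 10, of which Hmox1 alone had an unadjusted p under 0.05. For Txnip it was 0.045 (SE 0.48), so that an effect of CML on Txnip in stem cells was not shown to differ from that in progenitors. The CML-KLS- library also held more of the neutrophil markers (21234 against 13072 RPKM) and of the erythroid markers (2897 against 1649 RPKM) than the normal KLS- library, and their part in the Hmox1 difference was not tested.

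LT and ST stem cells differed in few of these genes. Txn1 was higher in LT than in ST libraries, with 174, 189, 154 and 144 RPKM in the LT libraries and 128 and 99.9 RPKM in the ST libraries, which did not overlap. Its log2 fold change was 0.53 (SE 0.12, adjusted p = 0.0431 from limma), and it was 1 of the 10 genes called, where 4.87% of all genes were. Leaving out any single library, or both second LT replicates, ended the call (adjusted p = 0.0541 to 0.383), while the log2 fold change stayed between 0.45 and 0.62.

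Gpx1 and Cat leaned the other way. Gpx1 was at 622 to 775 RPKM in the 4 LT libraries and at 1010 and 820 RPKM in the ST libraries, without overlap (log2 fold change -0.41, SE 0.11, adjusted p = 0.0799 from limma). Cat was at 41.4 to 56.5 RPKM in LT and at 72.2 and 66.5 RPKM in ST libraries, without overlap (log2 fold change -0.46, SE 0.15, adjusted p = 0.127). Both passed after quantile normalization (adjusted p = 0.0384 and 0.0410) and after upper-quartile scaling (adjusted p = 0.0469 and 0.0493), and under no other alternative. Txnip showed no such lean, with a log2 fold change of -0.045 (SE 0.24, adjusted p = 0.944).

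Beside this comparison, 8 of the 12 proliferation genes were higher in LT than in ST libraries, among them Mki67 (log2 fold change 1.67, SE 0.17, adjusted p = 0.00222 from limma), with summed levels of 536 to 784 RPKM in LT and 270 and 442 RPKM in ST libraries. Megakaryocyte markers were also higher in LT, with 376 to 612 RPKM against 153 and 170 RPKM. The sum of the 7 lymphoid markers went the other way, with 0.572 to 5.62 RPKM in LT and 23.6 and 26.7 RPKM in ST libraries. Most of it was Dntt, at 13.9 RPKM in ST-CML and 25.8 RPKM in ST-HSC (log2 fold change -3.93, SE 0.25, adjusted p = 3.47e-04 from limma). Of the 5 lymphoid markers tested, Dntt alone was called lower in LT and 4 did not pass. The 6 HSC markers split, with 1 called higher in LT, 1 lower and 4 that did not pass. Their sum was 275 to 345 RPKM in LT and 432 and 474 RPKM in ST libraries. Slamf1 was at 10.7 to 35.5 RPKM in LT and at 1.11 and 2.87 RPKM in ST libraries. The part of these genes and cell types in the Txn1 difference was not tested.

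Several of these genes, Prdx1 and Hmox1 among them, are known targets of the factor Nrf2 (Nfe2l2), which binds antioxidant response elements. The core of that element, searched as TGACNNNGC on both strands, was found in 12.4% of all promoter windows. Of the 9 genes with a window in the RefSeq table (Hmox1 has none there, and Gpx4 has 4), Prdx1 and Sod1 held it, in both cases on the minus strand relative to the gene. Their cores with 20 bases on each side are shown 5′ to 3′ on the strand of the gene in GRCm38.p6, with the core in capitals, because these are the matches among the enzymes. They come from chr4:116685446-116685494 for Prdx1 and chr16:90220686-90220734 for Sod1, both on the plus strand.
Prdx1: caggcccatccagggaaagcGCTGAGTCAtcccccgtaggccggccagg
Sod1: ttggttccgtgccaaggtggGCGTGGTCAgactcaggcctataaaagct
Nfe2l2 itself was between 42.1 and 58.2 RPKM in all 8 libraries, and its inhibitor Keap1 between 6.40 and 9.38 RPKM. The shares found say nothing of binding in these cells.

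Around the 10 genes, 8 lists of related redox genes were examined, with 88 of 90 genes tested (Nox4 and Mlxipl were too low). Between stem and KLS- libraries, 18 of the 88 were higher, 38 were lower and 32 did not pass. Of all genes tested, 26.5% were called higher and 22.2% lower in this comparison. After scaling to a common sum the split was 34 higher and 28 lower, and after quantile normalization 17 higher and 29 lower. None of the 88 passed between CML stem cells and normal HSCs in limma, where 7 had an unadjusted p under 0.05. None passed between LT-CML and LT-HSC, where 8 had an unadjusted p under 0.05. Of all 12561 genes tested, 1573 and 1452 had such a p in these 2 comparisons, so these counts do not set the related genes apart.

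The genes that supply NADPH, the reducing power behind glutathione and thioredoxin, were mostly lower in stem cells. Of 11 tested, 7 fell, 1 rose and 3 did not pass, and 6 fell after quantile normalization and after scaling to a common sum. Pgd of the pentose phosphate pathway changed by -1.95 on the log2 scale (SE 0.14, adjusted p = 3.35e-05), with 23.4 to 32.0 RPKM in stem and 105 and 126 RPKM in KLS- libraries. Idh1, cytosolic isocitrate dehydrogenase, changed by -1.88 (SE 0.15, adjusted p = 4.24e-05), and G6pdx and Tkt by -1.44 and -1.39.

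The subunits of the phagocyte NADPH oxidase, which makes superoxide, were also lower in stem cells. All 6 tested fell on the deposited scale, and 3 fell after scaling to a common sum. After quantile normalization 3 fell and 1 rose. Ncf1 changed by -2.43 (SE 0.37, adjusted p = 9.12e-04) and Cybb by -2.45 (SE 0.74, adjusted p = 0.0236). The second LT replicates, whose neutrophil markers differed in make-up, had Cybb at 10.5 RPKM (normal) and 7.00 RPKM (CML). The other stem libraries had 0.190 to 3.67 RPKM. The call of Cybb was lost without the ST-HSC library, the normal KLS- library or the CML-KLS- library (adjusted p = 0.0723 to 0.202).

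The glutathione genes split. Of 12 genes of glutathione synthesis and recycling, 5 fell, 2 rose and 5 did not pass. After quantile normalization 4 fell and 2 rose, and after scaling to a common sum 3 fell and 3 rose. Gsr, which regenerates glutathione, changed by -2.02 (SE 0.35, adjusted p = 0.00168), with 3.31 to 10.8 RPKM in stem and 25.6 and 28.4 RPKM in KLS- libraries. Gpx3, the secreted glutathione peroxidase, changed by -1.58 (SE 0.22, adjusted p = 5.97e-04). Gpx7, a peroxidase of the endoplasmic reticulum, rose by 1.84 (SE 0.14, adjusted p = 4.05e-05), with 4.80 to 7.49 RPKM in stem and 1.10 and 1.02 RPKM in KLS- libraries. Of 14 glutathione transferases, 7 fell, 2 rose and 5 did not pass, from Mgst2 at -2.04 and Gstm1 at -1.79 to Gstt1 at 2.66 (SE 0.21, adjusted p = 4.56e-05). The transferase counts were 6 lower and 2 higher after quantile normalization, and 5 lower and 4 higher after scaling to a common sum. The call of Mgst2 was lost without the CML-KLS- library (adjusted p = 0.0669).

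In the rest of the peroxiredoxin and thioredoxin system, 5 of 16 genes rose and 6 fell, with 5 and 4 after quantile normalization and 8 and 5 after scaling to a common sum. Sepx1 (Msrb1), which repairs oxidized methionine, changed by -2.01 (SE 0.19, adjusted p = 1.09e-04). Sesn1, a stress-induced sestrin, and Srxn1, the sulfiredoxin that reactivates peroxiredoxins, rose by 1.34 and 1.12 (adjusted p = 4.96e-04 and 0.00297), and the call of Srxn1 was lost without the normal KLS- library (adjusted p = 0.0566). Of the 13 redox transcription regulators, 6 rose and 1 fell, with 2 and 0 after quantile normalization and 10 and 1 after scaling to a common sum. Of 9 genes of haem and iron handling, 5 fell and none rose, led by Alas1, the first enzyme of haem synthesis (log2 fold change -3.59, SE 0.34, adjusted p = 1.04e-04), with 12.4 to 50.7 RPKM in stem and 255 and 339 RPKM in KLS- libraries. After quantile normalization, and likewise after scaling to a common sum, 4 of the 9 fell and 2 rose.

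**Figure D4:**
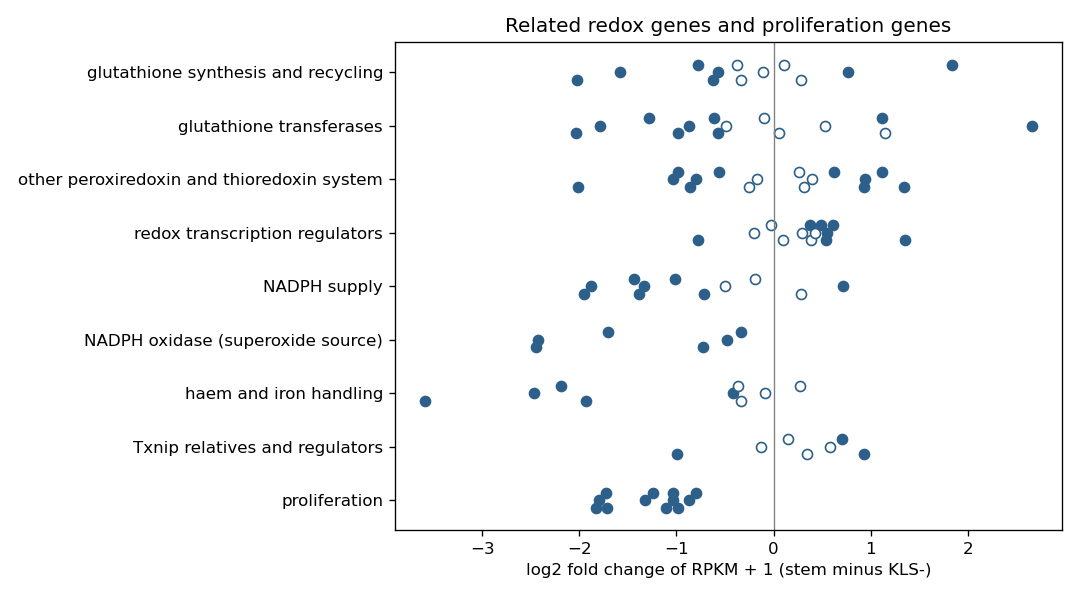
Log2 fold change of RPKM + 1 between stem and KLS- libraries (horizontal axis) for each tested gene of 8 related lists and of the proliferation list, with 1 circle per gene, filled where the adjusted p from limma was under 0.05. NADPH oxidase and proliferation genes lie left of 0 throughout, and the redox transcription regulators lie mostly right of it.

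Between LT and ST libraries 5 of the 88 related genes passed, where 4.87% of all genes tested did. Gstm2 was at 8.52 to 18.2 RPKM in LT and 0.508 and 1.90 RPKM in ST libraries (log2 fold change 2.67, SE 0.33, adjusted p = 0.00377 from limma). Gpx8, another peroxidase of the endoplasmic reticulum, was at 1.14 to 3.01 RPKM in LT libraries and at 0 and 0.0528 RPKM in ST libraries (log2 fold change 1.53, SE 0.21, adjusted p = 0.00600), levels at which the fold change depends on the pseudocount. Mgst1 (-1.10), Taldo1 (-0.61) and Rac2 (-0.49) were lower in LT. The calls of all 5 were lost when either the ST-HSC or the ST-CML library was left out, except that Gstm2 kept its call without ST-CML.

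Across the 8 libraries, the genes most like Txnip in log2(RPKM + 1), among 10033 genes with a mean of at least 1 RPKM, were Ctdsp2 (Pearson r = 0.988), Smad1 (0.982), a transducer of BMP signals, and Ulk1 (0.980), a kinase that starts autophagy. For Gpx1 they were Ticam2 (0.983), Cope (0.982) and Arpc3 (0.982). For Txn1 they were Odc1 (0.982), the first enzyme of polyamine synthesis, Nucks1 (0.980) and Csda (0.979). Nearest to Sod2 were Tnpo1 (0.992), Hyou1 (0.989) and Bag2 (0.986). Prdx2 was closest to Ptdss2 (0.990), Oxsm (0.978) and Rpsa (0.969). Gpx4 had 1700040I03Rik (0.981), Nploc4 (0.970) and Naip2 (0.964), and Sod1 had 2310009B15Rik (0.987), Dnajc12 (0.964) and the glutathione transferase Gstm5 (0.962). The points are 8 libraries that share their depth scaling and fall into 6 stem and 2 KLS- libraries, and with so few points such values arise readily among so many genes.

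Among the 10 genes themselves, Txnip ran against Gpx1 (Pearson r = -0.90 over the 8 libraries) and Sod2 (-0.82), and Sod2 ran with Prdx2 (0.92). The same split between stem and KLS- libraries underlies these values, which are a description.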

How the data were processed

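The 8 libraries were made from RNA of bone marrow cells after sorting (SMARTer Ultra Low Input kit, oligo-dT priming). The authors mapped paired reads to mm9 and deposited RPKM values per gene. Annotation, counting rule, strand and multiple matches are not given in the sources used here, so reads shared with near-identical copies (such as the pseudogene Prdx2-rs3) may be split. RPKM values are not counts. They were analysed as log2(RPKM + 1) for 12561 genes with a summed RPKM above 1, with limma 3.58.1 in R 4.3.3 (trend, Benjamini-Hochberg, threshold 0.05), and tables were made in Python 3.11.15. Fold changes on this scale understate those of low genes. Where groups of libraries are said not to overlap, this refers to the deposited RPKM and not to other scalings. The share of all genes without overlap is not given, so this describes the values only. CML against normal stem cells used 6 libraries. The other fits used all 8, so single-library populations borrow the spread of the others. Depth was estimated from the steps of low RPKM values, of which 84.6% of 4324 genes lay on whole multiples of 1 read (tolerance 0.04). Of gene names, 93.2% matched 1 GENCODE M1 locus. The genes and lists were chosen with earlier results of these data known. Genes of related lists were named if called (up to 4 a list by size of change), otherwise the 1 with the largest change. Genes with a similar pattern were the 3 with the highest Pearson r to Txnip and to each gene called between stem and KLS-, and those of Prdx1 are not reported here. Steps were tested on simulated data. No column was left unused.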

Additional observations from a re-analysis of the deposited data

How the results depend on the processing

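With the deposited RPKM, 294 genes passed between CML stem cells and normal HSCs. This count was 173 with no filter on low values, 543 with cell type as a covariate, 557 in a fit of all 8 libraries, 38 without both second LT replicates (chosen after seeing the data, like scaling to a common sum) and 115 to 217 with each library left out. None of the 10 genes passed under any of 15 alternatives. Between LT-CML and LT-HSC the count was 217, with 0 under no filter (1881 at an unadjusted p under 0.05 in limma) and 6 to 74 with a library left out. Between stem and KLS- it was 6123 (54.4% higher, 76.8% after scaling to a common sum) and 3178 to 6338 with a library left out, lowest without CML-KLS- and 3657 without normal KLS-. Between LT and ST it was 612, with 127 under no filter and 110 to 718 with a library left out. The interaction called 9 genes, with 2 at a pseudocount of 0.1, 151 under no filter, 1 at a mean of at least 1 RPKM, 1 under upper-quartile scaling, 0 under scaling to a common sum (494 at an unadjusted p under 0.05), 21 without both second LT replicates and 0 to 7 with a library left out.

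Some directions turned. Between CML and normal stem cells, where none of the 10 genes passed, quantile normalization gave Sod2 0.019, Gpx4 0.012 and Prdx2 0.057, scaling to a common sum gave Sod2 0.041 and Prdx2 0.0069, and Cat was -0.035 without both second LT replicates. With a library left out, Sod2 ranged from -0.13 to 0.049, Cat from -0.14 to 0.25, Prdx1 from -0.25 to 0.023, Prdx2 from -0.13 to 0.034 and Mki67 from -0.94 to 0.18. Txnip ranged from -0.17 to 0.52 between LT-CML and LT-HSC and from -0.20 to 0.31 in the interaction. Between stem and KLS-, calls of Sod1 (0.13), Gpx4 (0.12) and Prdx1 (0.12) were lost with a turn of direction under quantile normalization, and Hmox1 ranged from -0.99 to 0.54 with a library left out. With no filter on low values the calls of Sod1, Sod2, Gpx4 and Prdx1 (adjusted p = 0.0504 to 0.0802) and of Txn1 between LT and ST (adjusted p = 0.0991) were also lost. The cause was not tested. Of 35 related genes named between stem and KLS-, 25 kept their call under every alternative. No paired analysis was possible because the labels of the normal libraries carry ages and no replicate numbers. Hmox1 is the one gene of the set for which counting error limits the value.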

Other observations

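Among the related genes, Nnt, the mitochondrial enzyme that makes NADPH from NADH, was at 8.76 RPKM in LT-HSC replicate 2 and at 21.1 to 35.5 RPKM in the 7 other libraries. The log2 fold change of CML stem cells against normal HSCs was 0.41 (SE 0.37, adjusted p = 0.736 from limma). Nnt was chosen after its values were seen. The strain of the normal mice is not settled, and its part in the low value was not tested.

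Alas1 was at 12.4, 13.5 and 16.4 RPKM in the normal stem libraries and at 17.9, 50.7 and 46.8 RPKM in the CML stem libraries, which did not overlap. The difference did not pass (log2 fold change 1.26, SE 0.37, adjusted p = 0.176 from limma), and passed without LT-CML replicate 1 (1.73, adjusted p = 0.0140). The libraries with the higher values, LT-CML replicate 2 and ST-CML, also held Mpo at 1291 and 830 RPKM, against 5.20 RPKM in LT-CML replicate 1, and the part of such transcripts was not tested. The largest differences of the other lists in this comparison were those of Ncf4 (1.03), Gstm1 (0.69), Arrdc3 (-0.65), Me1 (0.59), Srxn1 (-0.49), Mki67 (-0.46), Gpx3 (0.45) and Mafk (-0.44), with adjusted p from 0.266 to 0.819.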
